A study of Homo sapiens with 22 samples.

Results

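FGFR2, EGFR and MET are receptor tyrosine kinases, and DUSP6, SPRY2, SPRY4, SPRED1, ETV4 and ETV5 are genes of the MAPK pathway that such receptors switch on. Peaks were taken at each of these 9 genes if they lay within 100 kb of its transcription start site (TSS, hg19). The windows held 1636 of the 508791 peaks on chromosomes 1 to 22 and X in all 22 libraries. The rule used no measured value.

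The cells were AN3CA, a human endometrial carcinoma line that carries mutant FGFR2. They expressed ARID1A in wild-type form (WT), with a mutated ARID domain (DBDmut), as the delIDR1 truncation, as the CBR truncation, or as a hybrid with the DDX4 intrinsically disordered region (DDX4). Control cells carried an empty vector (Empty). CUT&Tag, which tethers a transposase to an antibody so that the DNA near its target is cut and sequenced, was done for SMARCA4, SMARCC1 and H3K27ac. Each ARID1A construct had 1 library per antibody and Empty had 2, and 1 further library used an HA antibody in DDX4 cells. No difference between single constructs therefore has a replicate check, and whether a construct was expressed cannot be read from these files.

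SMARCA4 is an ATPase and SMARCC1 a core subunit of the BAF chromatin remodeller, and ARID1A is a subunit of its canonical form. Acetylation of histone H3 at lysine 27 (H3K27ac) accompanies promoters and enhancers in use. Growth factor receptors signal through RAS and the MAPK cascade to ERK. Pathway activity induces its own inhibitors, among them the ERK phosphatase DUSP6 and the Sprouty and SPRED proteins, and also the ETS transcription factors ETV4 and ETV5.

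SMARCA4 lists had 5567 to 15207 peaks, SMARCC1 lists 9685 to 23855 and H3K27ac lists 31745 to 92057. The fragment background recovered from the peak values gives a relative depth, in fragments per kb. SMARCA4 libraries lay between 0.916 and 1.95, SMARCC1 libraries between 1.33 and 3.28, H3K27ac libraries between 3.58 and 14.5, and the HA library at 0.462. WT was the deepest SMARCC1 library, and Empty replicate 2 was by far the deepest H3K27ac library. The peak names carry one of 3 prefixes: WT, DBDmut, delIDR1, CBR and Empty replicate 1 share one, and DDX4 and Empty replicate 2 have one each. Fold enrichments, −log10 q values and ranks below are the authors' own and are compared only within a list, while fragments are the pileup at the summit recovered from them, not scaled for depth.

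The RefSeq promoter windows (GRCh38.p14, 250 bases before to 50 after the start) of 4 genes are shown because the data separate them: DUSP6 and SPRY2 had both subunits at the TSS in all 7 libraries, FGFR2 had one or both in some, and EGFR had neither in any. Capitals mark a match to CCGGAA, the core letters bound by ETS factors, on either strand.
DUSP6: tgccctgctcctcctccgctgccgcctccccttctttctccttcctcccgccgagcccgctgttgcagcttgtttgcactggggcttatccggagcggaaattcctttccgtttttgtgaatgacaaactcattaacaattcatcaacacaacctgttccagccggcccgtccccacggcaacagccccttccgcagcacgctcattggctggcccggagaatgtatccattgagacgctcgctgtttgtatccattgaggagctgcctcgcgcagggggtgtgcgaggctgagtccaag
SPRY2: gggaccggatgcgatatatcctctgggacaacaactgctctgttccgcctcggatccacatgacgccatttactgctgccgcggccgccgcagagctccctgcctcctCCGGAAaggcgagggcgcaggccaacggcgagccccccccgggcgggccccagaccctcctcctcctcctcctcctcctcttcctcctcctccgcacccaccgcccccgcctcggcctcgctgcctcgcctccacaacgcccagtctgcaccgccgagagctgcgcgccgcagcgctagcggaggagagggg
FGFR2: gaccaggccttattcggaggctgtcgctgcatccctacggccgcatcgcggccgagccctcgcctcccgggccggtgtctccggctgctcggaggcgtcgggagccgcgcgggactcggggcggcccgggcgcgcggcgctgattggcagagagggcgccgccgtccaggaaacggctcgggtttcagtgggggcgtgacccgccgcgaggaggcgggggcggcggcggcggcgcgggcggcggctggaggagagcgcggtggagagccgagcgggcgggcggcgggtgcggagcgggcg
EGFR: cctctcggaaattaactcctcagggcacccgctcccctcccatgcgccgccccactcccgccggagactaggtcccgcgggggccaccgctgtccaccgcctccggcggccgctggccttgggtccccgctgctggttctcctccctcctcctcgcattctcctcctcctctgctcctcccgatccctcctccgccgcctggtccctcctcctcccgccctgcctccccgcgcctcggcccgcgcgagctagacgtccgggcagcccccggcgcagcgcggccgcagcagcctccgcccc
Of the 9 genes, 7 had a window in the table, with ETV4 and ETV5 named only. The windows lie at chr12:89352452-89352751 (minus strand) for DUSP6, chr13:80341077-80341376 (minus) for SPRY2, chr10:121598395-121598694 (minus) for FGFR2 and chr7:55018767-55019066 (plus) for EGFR. CCGGAA was found in 1 of these 7 windows, that of SPRY2, and in 17.2% of all 35116 windows. GGAATG, the letters of the TEAD motif, was found in SPRY4 only and in 14% of all windows, and the AP-1 letters TGANTCA in none of the 7 and in 7.71% of all. A stretch in which the ETS and TEAD letters overlap counts for both. GC content was 58.3% at DUSP6, 71% at SPRY2, 79.3% at FGFR2 and 75.3% at EGFR.

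The receptor loci held few BAF peaks, and most of those seen with WT were absent from both Empty libraries. At FGFR2, SMARCA4 gave 4 peaks with WT, 3 with DBDmut, 0 with delIDR1, 0 with CBR and 1 with DDX4, against 0 and 1 in the Empty replicates. SMARCC1 gave 10, 7, 2, 2 and 0 in the same order, against 2 and 3 in Empty. WT and DBDmut thus had more SMARCC1 peaks at FGFR2 than any other library. All 4 SMARCA4 peaks and 8 of 10 SMARCC1 peaks of WT met no peak of the same antibody in Empty, against 63.7% of all WT SMARCA4 peaks and 57.2% of all WT SMARCC1 peaks.

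A BAF site is defined here as a WT SMARCA4 peak that overlaps a WT SMARCC1 peak, and a gained site as one where neither Empty replicate has a peak of either subunit. FGFR2 had 4 BAF sites and all were gained. None of the 4 was called with every list shortened to the shortest of its antibody, and those at 86.4 and 44.5 kb were not called at a −log10 q of at least 5. They lay 44.5, 62.0, 86.4 and 87.9 kb downstream of the TSS, in the direction of transcription. The site at 87.9 kb (chr10:123269878-123270150) held 12 SMARCA4 fragments in WT and 10 in DBDmut, and 22 and 14 SMARCC1 fragments. No other library had a subunit peak there. The site at 44.5 kb (chr10:123313394-123313655) had SMARCA4 in WT only, at 9 fragments, and SMARCC1 in WT (19 fragments), DBDmut (12), delIDR1 (10) and CBR (6). The site at 62.0 kb (chr10:123295923-123296078) had both subunits in WT alone, with 9 and 18 fragments. The site at 86.4 kb (chr10:123271573-123271699) had 9 SMARCA4 fragments in WT, and SMARCC1 in WT (14) and DBDmut (13).

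H3K27ac was present at all 4 gained FGFR2 sites in WT and in DBDmut. It marked the 87.9 kb site with 57 fragments in WT, 46 in DBDmut, 28 in delIDR1 and 16 in CBR, and was absent in DDX4 and in both Empty replicates. At 44.5 kb the mark was also called in DDX4 (26 fragments) and in Empty replicate 2 (29 fragments). The deepest library therefore had the mark at 2 of the 4 sites where no BAF subunit was called.

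The FGFR2 promoter showed another pattern. Within 1 kb of the TSS, SMARCC1 was called in WT (21 fragments), CBR (14), Empty replicate 1 (19) and Empty replicate 2 (26). SMARCA4 was called in DBDmut (10), DDX4 (12) and Empty replicate 2 (20), and not in WT. H3K27ac was called there in 6 of 7 libraries, with CBR as the exception. The WT SMARCC1 peak of highest −log10 q at FGFR2 lay 2.1 kb downstream of the TSS, with 26 fragments, against 27 in Empty replicate 2 and no peak in Empty replicate 1. The promoter thus had BAF-subunit peaks with and without ARID1A expression from the constructs.

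**Figure D1:**
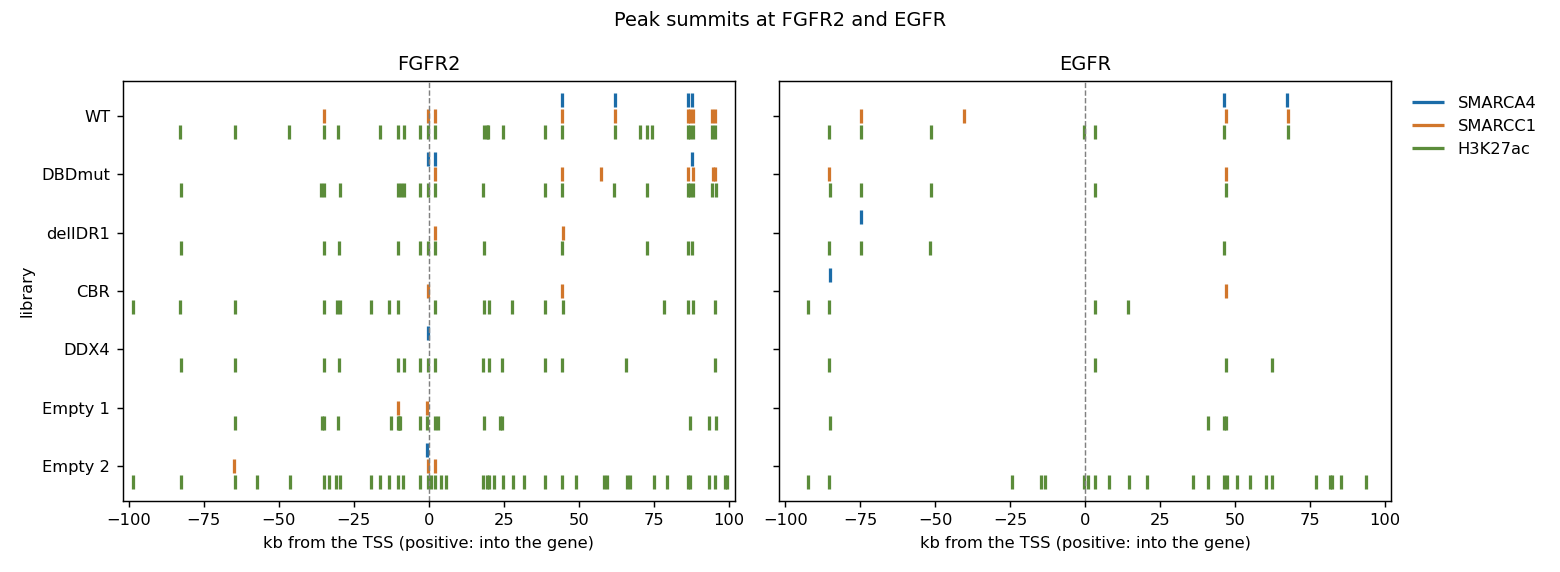
Peak summits at FGFR2 and EGFR for each library, by distance from the TSS in kb (positive into the gene), in rows from WT to Empty. The 4 gained FGFR2 sites stand between 44.5 and 87.9 kb in WT, and EGFR has subunit peaks in WT, DBDmut, delIDR1 and CBR but in neither Empty replicate.

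EGFR had 2 SMARCA4 peaks with WT, 0 with DBDmut, 1 with delIDR1, 1 with CBR and 0 with DDX4, against none in either Empty library. SMARCC1 gave 4, 2, 0, 1 and 0 peaks, against none in Empty. Its gained BAF site lay 67.4 kb downstream of the TSS (chr7:55154120-55154251), with 9 SMARCA4 and 20 SMARCC1 fragments in WT, and it was not called with the shortened lists. No other library had a subunit or H3K27ac peak there. Near 46 kb, WT had a SMARCA4 peak at 46.3 kb and a SMARCC1 peak at 46.8 kb that did not overlap. The SMARCC1 peak was also called in DBDmut (19 fragments, against 24 in WT) and CBR (8). H3K27ac was called in this stretch in every library except CBR, with 71 fragments in WT. Empty replicate 1 had 18 and 24 H3K27ac fragments at separate summits there, and Empty replicate 2 had 27 and 22. The strongest WT SMARCC1 peak by −log10 q, 74.7 kb upstream, had 18 fragments. No library had a BAF-subunit peak within 1 kb of the EGFR TSS, and H3K27ac was called there in WT (20 fragments) and Empty replicate 2 (55).

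H3K27ac peaks at EGFR numbered 7 in WT, 5 in DBDmut and 4 each in delIDR1, CBR and DDX4, against 4 in Empty replicate 1 but 24 in its second replicate. The 2 Empty libraries thus differed from each other more than any construct did from Empty replicate 1. MET, the hepatocyte growth factor receptor, had no H3K27ac peak in any library. It had 2 SMARCA4 peaks in DBDmut, at 30.0 kb downstream and 62.8 kb upstream, and none in any other library. SMARCC1 gave 2 peaks in WT, at 30.0 and 34.4 kb, against 0 and 1 in the Empty replicates. The MET peaks held 3 to 13 fragments.

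The inhibitors DUSP6, SPRY2 and SPRY4 carried BAF peaks in every library. DUSP6 had 5 SMARCA4 peaks with WT, 10 with DBDmut, 10 with delIDR1, 9 with CBR and 11 with DDX4, against 8 and 15 in the Empty replicates. SMARCC1 gave 14, 17, 13, 8 and 14 peaks at DUSP6, against 16 and 17 in Empty. WT had the fewest SMARCA4 peaks of the 7 libraries at this gene. At the DUSP6 TSS, SMARCA4 held 22 fragments with WT, 45 with DBDmut, 21 with delIDR1, 25 with CBR and 62 with DDX4, against 24 and 74 in Empty. SMARCC1 held 86, 74, 49, 26 and 52 fragments there, against 75 and 88 in Empty. The WT SMARCA4 peak of highest −log10 q at DUSP6 lay 99.5 kb upstream, with 17 fragments, against 23 and 48 in Empty.

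SPRY2, which restrains receptor signalling upstream of ERK, had 7 SMARCA4 peaks with WT, 8 with DBDmut, 7 with delIDR1, 9 with CBR and 8 with DDX4, against 6 and 7 in Empty. Its promoter had both subunits in all 7 libraries. Its SMARCA4 peak of highest −log10 q in WT, 33.7 kb upstream (chr13:80948719-80948976), had 28 fragments with WT, 35 with DBDmut, 27 with delIDR1, 20 with CBR and 26 with DDX4, against none in Empty replicate 1 and 22 in Empty replicate 2. SMARCC1 was called at that site in all 7 libraries. A single gained site lay 38.5 kb upstream (chr13:80953527-80953767), with 14 SMARCA4 fragments in WT and SMARCC1 in WT (25) and DBDmut (18). H3K27ac was called there in Empty replicate 1 (21 fragments) as well as in WT (58), DBDmut (74), delIDR1 (53) and DDX4 (41).

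SPRY4, a paralog of SPRY2, had 9 SMARCA4 peaks with WT, 14 with DBDmut, 7 with delIDR1, 9 with CBR and 10 with DDX4, against 6 and 8 in Empty. Its strongest site, 61.2 kb upstream (chr5:141765766-141765967), was in the top 1.3% of WT SMARCA4 peaks and the top 0.457% of WT SMARCC1 peaks. SMARCA4 there held 45 fragments with WT, 53 with DBDmut, 26 with delIDR1, 29 with CBR and 43 with DDX4, against 49 and 81 in Empty. Every library therefore held this site. Within 1 kb of the SPRY4 TSS, SMARCC1 had a summit in the 5 ARID1A constructs and Empty replicate 1, with 48 fragments in WT and 65 in Empty replicate 1. Empty replicate 2 also had a SMARCC1 peak that overlapped the stretch 0.2 kb upstream, but its summit lay farther than 1 kb away. SMARCA4 had a summit within 1 kb of the SPRY4 TSS in DBDmut (19) and DDX4 (23), against 16 and 25 in Empty, and not in WT. A site 1.5 kb upstream (chr5:141705965-141706129) had both subunits in every library, with 15 SMARCA4 and 63 SMARCC1 fragments in WT.

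SPRY4 also had 3 gained sites, at 20.6, 27.7 and 67.1 kb downstream of the TSS. The 27.7 kb site (chr5:141676729-141676973) had both subunits in WT and DBDmut, SMARCC1 alone in delIDR1, and H3K27ac in WT (70 fragments), DBDmut (63) and delIDR1 (55) but in neither Empty replicate. The 67.1 kb site (chr5:141637452-141637571) had both subunits in WT, DBDmut and CBR, and H3K27ac in Empty replicate 1 alone, at 6 fragments. The 20.6 kb site (chr5:141683992-141684093) had both subunits in WT alone, with 15 and 30 fragments. H3K27ac was also called there in Empty replicate 2, with 44 fragments against 48 in WT. The Empty library was the deeper one, at 14.5 fragments per kb against 4.48 in WT.

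SPRED1, which inhibits RAS activation, lay between the 2 patterns. SMARCA4 gave 3 peaks in WT, 3 in DBDmut and 1 each in delIDR1, CBR and DDX4, against 0 and 1 in Empty. A gained site 34.8 kb upstream (chr15:38510219-38510395) had 10 SMARCA4 fragments in WT, SMARCC1 in WT (12) and DBDmut (8), and H3K27ac in WT (23) and DBDmut (29) alone. The promoter-proximal peak about 1 kb upstream of the TSS had SMARCC1 in WT, DBDmut, delIDR1 and CBR and in both Empty replicates, and no SMARCC1 peak in DDX4. DDX4 did have a SMARCA4 peak there (17 fragments), while Empty replicate 1 had none.

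**Figure D2:**
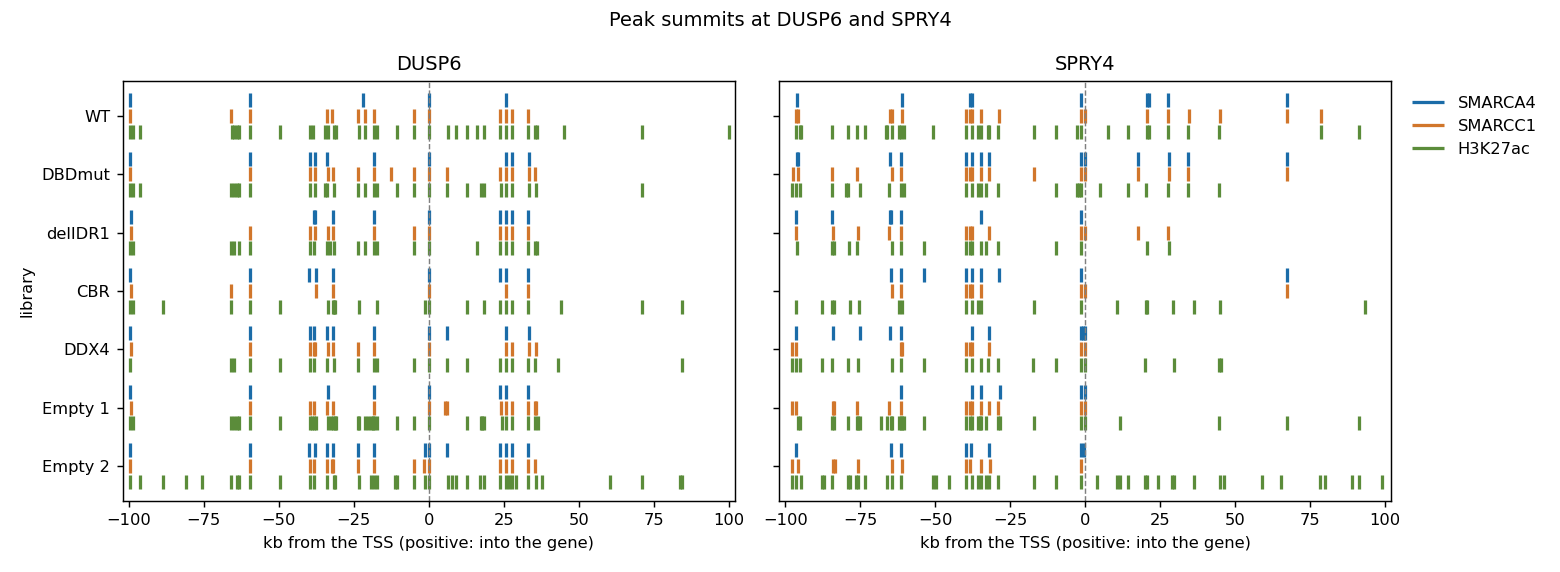
Peak summits at DUSP6 and SPRY4 for each library, by distance from the TSS in kb (positive into the gene), in rows from WT to Empty. The DUSP6 TSS carries both subunits in all 7 libraries, and the SPRY4 sites at 20.6 and 27.7 kb lack subunit peaks in both Empty rows.

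The ETS factor genes had promoter or distal BAF peaks in every background. The ETV5 promoter peak held 19 SMARCA4 fragments with WT, 38 with DBDmut, 30 with delIDR1, 37 with CBR and 66 with DDX4, against 25 and 41 in Empty. It was in the top 0.939% of WT SMARCC1 peaks. A gained ETV5 site 4.9 kb downstream of the TSS (chr3:185821949-185822056) had 15 SMARCA4 and 25 SMARCC1 fragments in WT and SMARCC1 in CBR (13). H3K27ac there was called in WT (61 fragments), delIDR1 (31), CBR (44) and Empty replicate 1 (46), and not in Empty replicate 2.

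ETV4 had no gained BAF site. Within 1 kb of its TSS, SMARCA4 was called in CBR (13 fragments) and DDX4 (18), against 12 and 22 in Empty, and SMARCC1 in DBDmut (10), against 19 and 32 in Empty. WT had neither subunit there. Its site 62.6 kb downstream (chr17:41561129-41561361) held 18 SMARCA4 fragments with WT, 30 with DBDmut, 7 with delIDR1, 20 with CBR and 20 with DDX4, against 22 and 13 in Empty. H3K27ac peaks at ETV4 numbered 19 with WT, 7 with DBDmut, 9 with delIDR1, 9 with CBR and 7 with DDX4, against 11 and 20 in Empty. Of the 19 in WT, 12 met no Empty peak, against 40.0% of all WT H3K27ac peaks. These 12 held 5 to 48 fragments. Of them, 1 was shared with DBDmut, 2 with delIDR1, 1 with CBR and 0 with DDX4. The same shares over all such WT peaks were not computed.

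**Figure D3:**
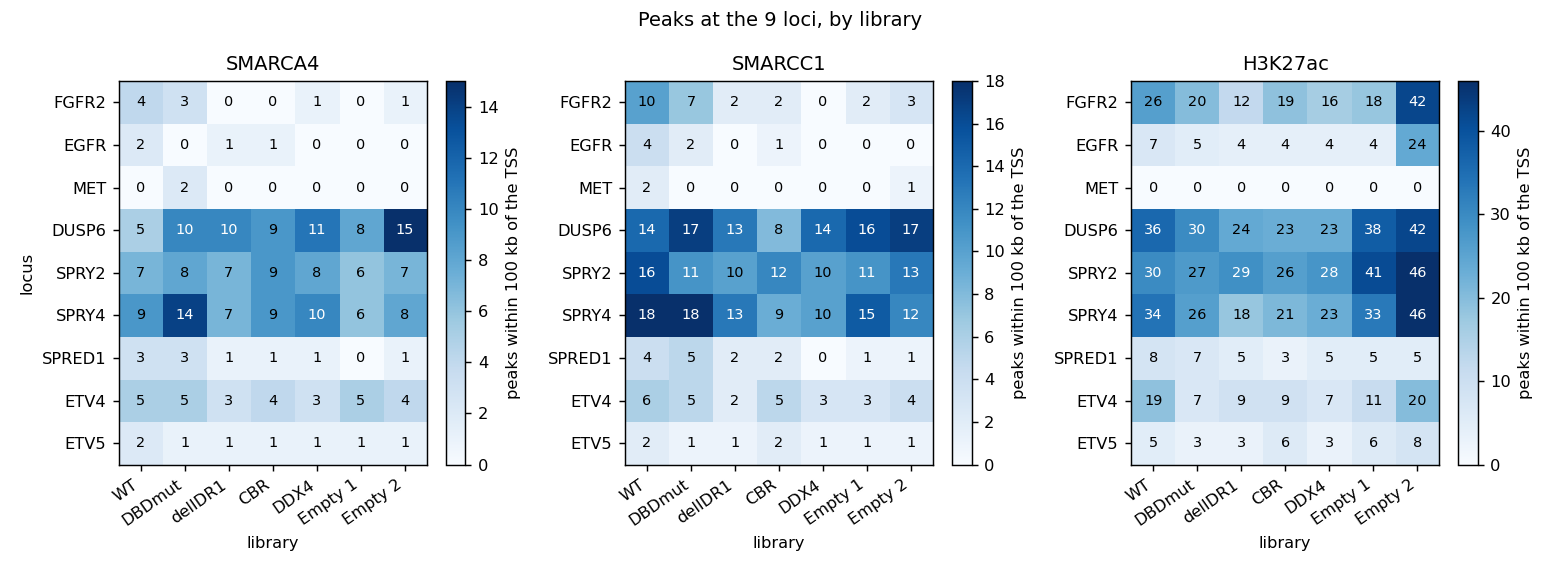
Number of peaks within 100 kb of each TSS, by locus (rows) and library (columns, WT first and Empty last), for SMARCA4, SMARCC1 and H3K27ac. FGFR2 has its highest SMARCA4 and SMARCC1 numbers in WT and DBDmut and EGFR has its highest in WT, while DUSP6, SPRY2 and SPRY4 have at least 5 SMARCA4 peaks in every library.

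Summed over the 9 windows, no difference between the constructs and Empty passed the test. SMARCA4 peaks averaged 36.4 ± 5.94 over the 5 ARID1A constructs and 31.5 ± 7.78 in Empty (SD, n = 5 and 2; two-sided exact permutation p = 0.429, adjusted over 3 antibodies 0.643). SMARCC1 averaged 52.8 ± 17.1 and 50.5 ± 2.12 (exact permutation p = 0.905, adjusted 0.905). H3K27ac averaged 123 ± 24.8 and 194 ± 54.4 (exact permutation p = 0.0952, adjusted 0.286). The smallest p this design of 21 labelings can give is 0.0476, which adjusts to 0.143 if 1 antibody alone reaches it. The constructs are different proteins, so their spread is not replicate error, and the sign of the SMARCA4 difference turned without Empty replicate 1 (-0.6 peaks). The sign of the SMARCC1 difference turned without WT (-3.5) and without DBDmut (-1).

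Read against all peaks of the lists, the share of WT peaks gained was lower at these loci, which was not tested. Of WT SMARCA4 peaks in the windows, 17 of 37 met no Empty peak, against 63.7% of all WT SMARCA4 peaks. For SMARCC1 this was 34 of 76, against 57.2%, and for H3K27ac 35 of 165, against 40.0%. Without Empty replicate 2, the deepest H3K27ac library, the H3K27ac count was 69 of 165. By role, the receptors gained 6 of 6 SMARCA4 and 14 of 16 SMARCC1 peaks, the inhibitors 8 of 24 and 16 of 52, and the ETS genes 3 of 7 and 4 of 8. The differences between roles were not tested.

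Of 32 BAF sites in the windows, 11 were gained, against 45.0% of all WT BAF sites, and 14 were constitutive, meaning that both subunits were called in both Empty replicates, against 26.5% of all. The gained sites lay 4.9 to 87.9 kb from a TSS and none within 1 kb. Of the 11, 9 lay downstream, with 4 of these at FGFR2 and 3 at SPRY4. Of the 14 constitutive sites, 3 lay within 1 kb and 3 downstream. Distances over all sites of each class were not computed. Gained sites were also weaker: median SMARCC1 in WT was 19 fragments at gained and 52 at constitutive sites. Calls in the Empty lists defined both classes and can sort weak from strong peaks, so this difference is a description. With lists cut to the shortest list of each antibody, 3 of the 11 gained sites remained, at SPRY2 (38.5 kb upstream), ETV5 (4.9 kb) and SPRY4 (20.6 kb), and none of the 5 at the receptors.

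Gained sites were chosen for peaks in WT and none in Empty, and constitutive sites for peaks in WT and Empty, so any other library can only equal WT or fall below it, and the shares are a description. DBDmut had both subunits at 3 of the 11 gained sites (35.5% of all gained sites), delIDR1 at 0 (14.0%), CBR at 1 (5.5%) and DDX4 at 0 (0.479%). The 95% Wilson intervals, which cover counting error only, ran from 9.75 to 56.6% for DBDmut, 0 to 25.9% for delIDR1 and DDX4, and 1.62 to 37.7% for CBR. Each holds the share of all sites. Of the 14 constitutive sites, DBDmut had both subunits at 14 (94.2% of all), delIDR1 at 12 (75.4%), CBR at 14 (86.1%) and DDX4 at 13 (87.7%). WT had the deepest SMARCC1 library (3.28 fragments per kb, against 1.33 to 2.87 in the other 6), and the part of depth in the gained sites was not tested.

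**Figure D4:**
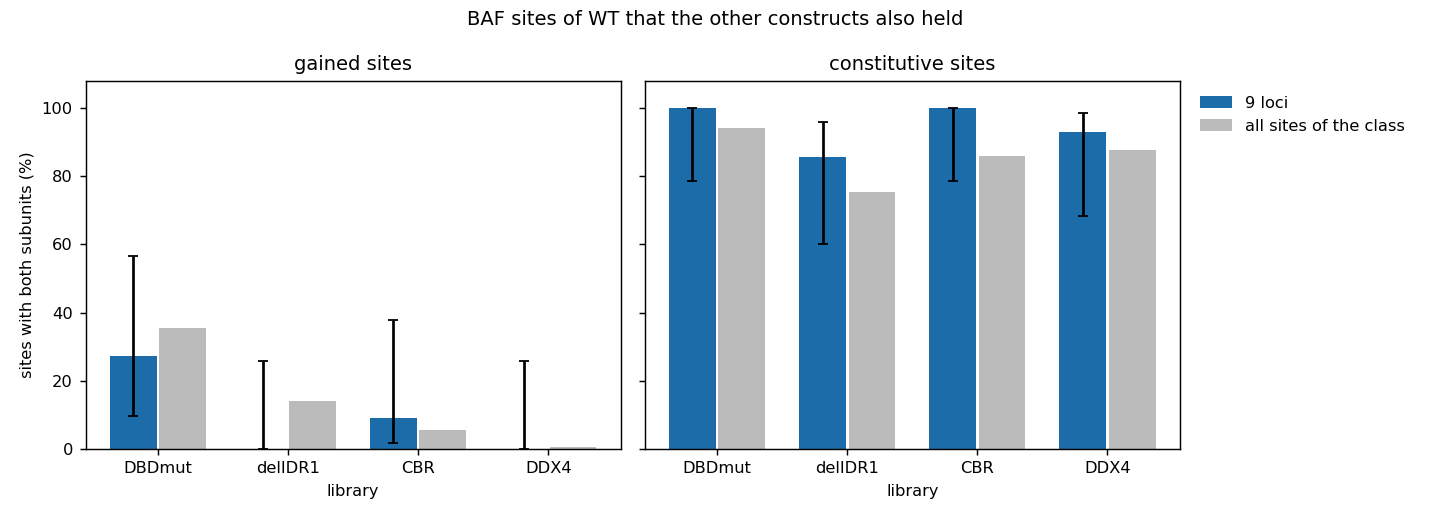
Share of gained and of constitutive WT BAF sites with both subunits in DBDmut, delIDR1, CBR and DDX4, in percent, for the 9 loci (blue, bars with 95% Wilson intervals) and for all sites of the class (grey). At the loci the 4 constructs held between 85.7 and 100% of the constitutive sites and between 0 and 27.3% of the gained sites.

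Of the 11 gained sites, WT had H3K27ac at 10 (89.3% of all gained sites), DBDmut at 8 (72.4%), delIDR1 at 7 (65.5%), CBR at 5 (26.6%) and DDX4 at 2 (26.9%), against 3 in Empty replicate 1 (12.9%) and 3 in replicate 2 (21.9%). delIDR1 had H3K27ac at 7 gained sites, close to the share of all gained sites. It had SMARCC1 at 2 and both subunits at 0, with the shallowest SMARCC1 library (1.33 fragments per kb). The 3 sites differed between the Empty replicates, so 6 of the 11 gained sites carried H3K27ac in one of them and 0 in both.

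**Figure D5:**
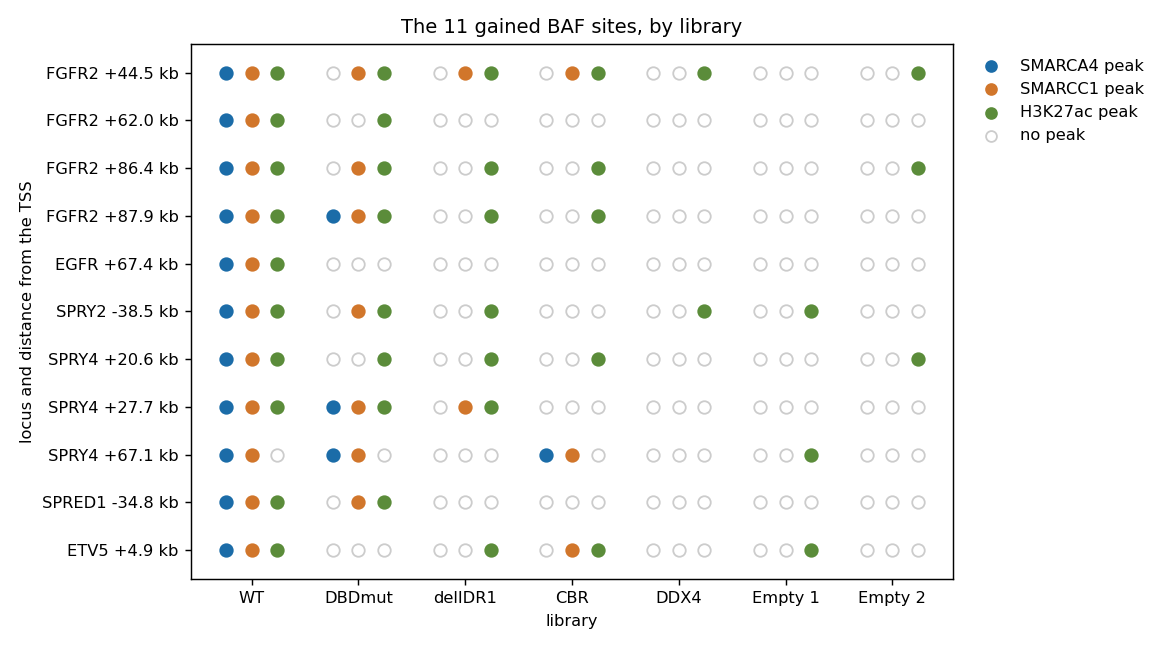
Presence of SMARCA4, SMARCC1 and H3K27ac peaks (filled circles) at the 11 gained BAF sites, by site (rows, with kb from the TSS) and library (columns, Empty last). DBDmut holds 7 sites with SMARCC1, of which 3 also have SMARCA4, and DDX4 holds none.

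Some Empty peaks were missing in WT. Both Empty replicates had to share them, so their number is not comparable with that of the gained peaks. Among peaks of Empty replicate 1 that replicate 2 shared, 8 of 23 SMARCA4 peaks met no WT peak, against 24.2% of all such peaks. For SMARCC1 it was 10 of 44, against 21.2%, and for H3K27ac 20 of 119, against 20.2%. The SMARCA4 sites were at DUSP6 (4), SPRY2 (2), SPRY4 (1) and ETV4 (1). At DUSP6 they lay at 33.2 and 23.8 kb downstream and at 18.3 and 33.7 kb upstream. At SPRY2 they lay 19.2 and 96.8 kb upstream, at SPRY4 0.2 kb upstream and at ETV4 0.4 kb downstream of the TSS. At 7 of the 8 sites WT, the deepest SMARCC1 library, had a SMARCC1 peak, the exception being ETV4. DDX4 had SMARCA4 at 6 of the 8. The same shares over all missing SMARCA4 peaks were not computed. WT SMARCA4 was at 1.53 fragments per kb, against 1.23 and 1.95 in Empty.

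The SMARCC1 peaks missing in WT were at SPRY4 (5), DUSP6 (3), SPRY2 (1) and ETV4 (1). All were without WT SMARCA4, and this share over all such peaks was not computed. The missing SMARCC1 peaks lay 32.0, 76.2, 83.7, 84.3 and 97.7 kb upstream at SPRY4, and at 35.4 kb downstream and 38.4 and 39.5 kb upstream at DUSP6. At SPRY2 and ETV4 they lay 91.0 and 0.9 kb downstream. Of the 20 missing H3K27ac peaks, 6 were at SPRY2, 4 each at SPRY4 and ETV4, 2 each at FGFR2 and DUSP6, and 1 each at EGFR and ETV5. Only the interval of Empty replicate 1 was compared with WT, so a WT peak just beside it did not count. Such a WT peak overlapped the Empty replicate 2 peak at FGFR2 (95.8 kb downstream) and at SPRY2 (18.3 kb upstream). The mark was thus not absent from WT around these sites, and other such cases were not counted.

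The HA antibody gave peaks in DDX4 cells at every inhibitor and ETS gene and at no receptor. Of the 23 peaks, 6 each were at SPRY2 and SPRY4, 5 at DUSP6, 4 at ETV4 and 1 each at ETV5 and SPRED1. All 23 met a SMARCA4 or SMARCC1 peak of DDX4, against 66.9% of all HA peaks, and 22 met a subunit peak in both Empty replicates, against 61.0%. HA was called at 10 of the 14 constitutive sites and at 0 of the 11 gained sites, where DDX4 had neither subunit. The same shares over all sites of each class were not computed, so whether the counts are particular to these loci was not tested. By −log10 q the first HA peak was at the ETV5 promoter, in the top 2.71% of HA peaks with 29 fragments. The SPRY2 promoter had 34 fragments. No HA library of Empty cells was analysed here, so the background of the antibody was not measured.

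Over the 21 libraries other than HA, peaks per 10000 of the list at FGFR2 were most alike in EGFR (Pearson r = 0.64) and SPRED1 (0.42) among the 9 genes. MET came next at 0.01, which is no likeness, and the remaining genes had negative values. The libraries share their antibody within groups of 7, and the values are a description.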

How the data were processed

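The authors deposited 1 peak list per library (hg19, per the submitters' processing notes, which also name bcl2fastq). No aligner or peak caller is named in these sources. Each deposited list holds a score, a fold enrichment ratio, and −log10 p and −log10 q per peak. The lowest −log10 q in any list was 2. Peaks were called per library.

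Overlap meant at least 1 shared base. Pileups were recovered from the authors' fold and −log10 p under a Poisson model with 1 added to both terms of the fold (at least 99.98% of peaks in every list, the most significant peaks left out, gave whole pileups within 0.001), and the lowest background per shortest peak length gave fragments per kb. Python 3.11.15, numpy 2.4.6, pandas 2.3.3 and scipy 1.17.1 were used, and the steps were tested on simulated data. The genes named were all 9 members, with every gained BAF site and every SMARCA4 or SMARCC1 peak missing in WT; of the TSS peaks, the WT peaks of highest −log10 q and the remaining changed peaks, some are given by value and the rest by count or not at all. The members and lists were chosen with earlier results of these data known. Other pathway genes had no hg19 start and were not analysed here. Labels do not say whether the Empty replicates were separate cultures.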

Additional observations from a re-analysis of the deposited data

How the results depend on the processing

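With −log10 q of at least 5, gained WT SMARCC1 peaks numbered 20 and constitutive sites 8, and the SMARCC1 difference between constructs and Empty became -0.9. Under that limit delIDR1 and DDX4 held 100% of constitutive sites, and CBR held 0% of gained sites with both subunits and 12.5% with H3K27ac. With lists of equal length (5567, 9685 and 31745 peaks), gained WT peaks were 5 for SMARCA4, 15 for SMARCC1 and 23 for H3K27ac, with 3 gained and 6 constitutive sites. The SMARCA4 difference became -7.7 and the SMARCC1 difference -1.1. Of the gained sites DBDmut and CBR then held 0%, and H3K27ac marked 100% in WT, 33.3% in DBDmut and 100% in delIDR1, while delIDR1 and DDX4 held 100% of constitutive sites. Fewer peaks enter by construction. Within 50 kb, 20 SMARCC1 and 16 H3K27ac peaks were gained, with 6 gained and 9 constitutive sites, 0% of gained sites held by CBR and 100% with H3K27ac in WT. Per 10000 peaks, an alternative chosen after seeing the data, the differences were -9.59 for SMARCA4, 1.5 for SMARCC1 and -3.27 for H3K27ac. The cause of the reversals of sign was not tested.

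Leaving out 1 library at a time (the ARID1A constructs as an alternative chosen after seeing the data) gave SMARCA4 differences of -0.6 to 10.4, SMARCC1 differences of -3.5 to 6 and H3K27ac differences of -110 to -33.2. Leaving out either Empty replicate gave 46 to 69 gained H3K27ac peaks and 11 gained sites each time. Within the libraries sharing the WT prefix, the differences were 10.8, 7.5 and -29.8, with 1 Empty library each. An overlap of 50% of the shorter peak kept every one of the 21 results within its limits. Leaving out an Empty replicate allows no exact permutation p below 0.167, the WT prefix alone none below 0.2 and leaving out a construct none below 0.0667, so these settings could not pass and say nothing about stability. No paired analysis was possible because only Empty has more than 1 replicate.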
